A study of Mus musculus with 2 samples.

Results

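A gate for endothelial cells, the lining cells of blood and lymph vessels, was met by 68 of 9049 filtered neonatal barcodes. The same 68 stood among 12968 filtered barcodes over both ages of a droplet single-cell RNA sequencing study of mouse lung. Meeting the gate does not by itself make a barcode an endothelial cell, as some members carried little other endothelial RNA. Cells were counted as members when the UMIs (unique molecular identifiers, each standing for 1 captured RNA molecule) of Cdh5, Cldn5, Egfl7, Ramp2 and Epas1 summed to at least 4 and at least 1 of them came from Cdh5 or Cldn5. Barcodes were filtered first, to those with 500 or more genes, 1000 or more UMIs and no more than 10% of UMIs from mitochondrial genes. Lungs came from zbtb46-cre x rosa26-yfp mice of 7 days (neonatal) and 8 weeks (adult), in which Cre from the Zbtb46 gene switches on YFP for good, so that YFP marks any cell whose own history includes Zbtb46 expression. Each age had 2 pools of several mice, each pool with a hashtag antibody of its own, and the pools of an age were joined and loaded together, so that age and loading cannot be told apart. All 4 pools carried both alleles and were sorted on viability, CD45.2 and YFP, the labels giving no sign for CD45.2 and naming the cells as dendritic cells. No untreated or Cre-negative sample was analysed here.

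Endothelial cells seal the vessel wall with VE-cadherin and claudin junctions and respond to VEGF, angiopoietin, Notch and BMP signals. The alveolar bed of the lung holds general capillary cells, which can divide and renew the bed, and aerocytes, large thin cells specialised for gas exchange. Leukocytes carry CD45, the product of Ptprc, on their surface, whereas endothelial cells as a rule do not. ZBTB46 is best known as a transcription factor of classical dendritic cells, and endothelial cells are also known to make it.

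The gated cells were spread over both neonatal pools and were rare. Pool 1 held 28 among 4518 filtered barcodes (0.620%, exact 95% binomial interval 0.412 to 0.894%) and pool 2 held 40 among 4531 (0.883%, 0.631 to 1.20%). The adult pools, by the same gate, held 4 of 2051 (0.195%, 0.0532 to 0.499%) and 5 of 1868 (0.268%, 0.0870 to 0.624%). Both neonatal pools thus lay above both adult pools, with means of 0.751% ± 0.186 (SD, n = 2 pools) and 0.231% ± 0.0514 (SD, n = 2 pools). This difference is a description, because the members were proposed as neonatal, and 2 pools against 2 allow no two-sided exact permutation p below 0.333. Shares here are shares of sorted cells, so the sort sets them. No barcode was shared between the pools of an age, and 14 were shared between ages (4, 1, 9 and 0 over the 4 pairs of pools). Intervals cover counting error only, and the pools are separate pools of mice, per the labels.

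The sum over the 5 gate genes separated the cells into a large set near 0 and a small set far above it. Of the neonatal cells, 8770 had 0 gate UMIs, 199 had 1, 7 had 2 and 3 had 3. No more than 7 cells lay between 4 and 11, of which 5 were members, and 63 cells had 12 or more, all of them members. The member sums ran from 4 to 66 UMIs in pool 1 with a median of 33.5, and from 4 to 78 in pool 2 with a median of 32. The members just inside the limit had 4, 4 and 6 gate UMIs, and these 3 cells also carried 22, 17 and 10 UMIs of the 12 pan-leukocyte genes (Ptprc, Coro1a, Laptm5, Tyrobp, Fcer1g, Cd52, Rac2, Lcp1, Arhgdib, Spi1, Cd53 and Cytip). Of 20 other junction and surface genes of endothelium these 3 cells had 0, 2 and 5 UMIs, beside a median of 37.5 over all members. Whether they are endothelial cells was not tested. The 3 cells just outside, with 3 gate UMIs, carried 41, 80 and 55. A further 2 cells with 4 and 6 gate UMIs stayed out because neither Cdh5 nor Cldn5 was detected.

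Leukocyte RNA was nearly absent from most members and ample in a minority. The pan-leukocyte sum was 5 UMIs or less in 47 of the 68 members (18 in pool 1 and 29 in pool 2), among them 9 cells at 0 and 27 at 1 or 2. It was above 5 in the other 21 (10 and 11), of which 11 held more than 40, whereas the other neonatal cells had a median of 52. Only 3 members lay from 6 to 10 UMIs and 11 from 3 to 5, so few lie near this limit, which is a range and not a type. The 47 leukocyte-poor members had between 13 and 78 gate UMIs with a median of 36, and the 21 leukocyte-bearing members between 4 and 70 with a median of 27. Results below are for all members unless leukocyte-poor members are named, and the values of the 2 often differ. Among leukocyte-poor members, 129 of 215 named genes had a log2 fold against other neonatal cells that moved by at least 1 SD between pools. The direction changed for 1 gene, and all 148 genes past 4-fold stayed past it.

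**Figure D1:**
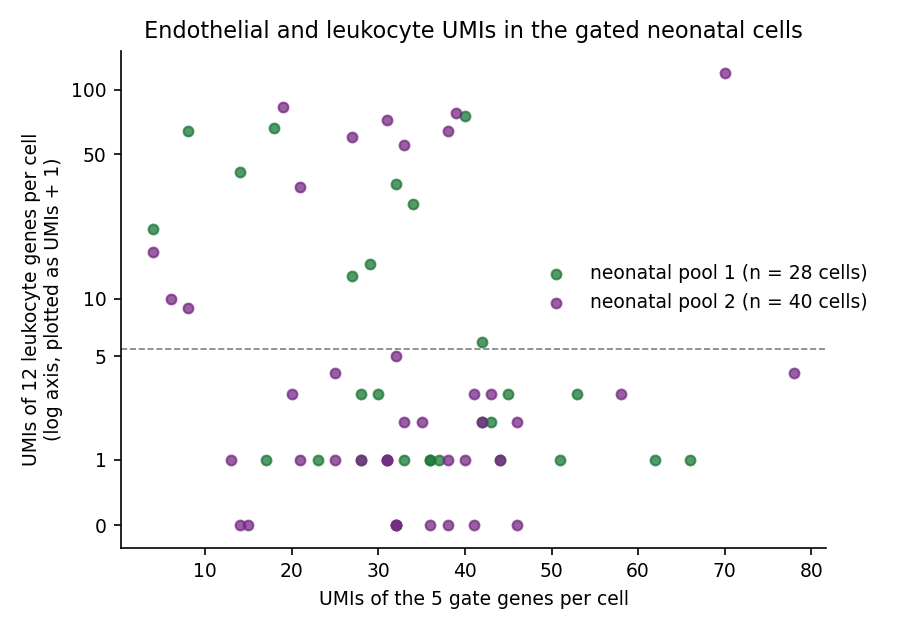
Each point is 1 of the 68 gated neonatal cells, by UMIs of the 5 gate genes (horizontal) and UMIs of the 12 pan-leukocyte genes (vertical, log axis of UMIs + 1), coloured by pool; the dashed line separates 47 cells with at most 5 leukocyte UMIs from 21 with more. Both pools contribute to both sets, and the 5 members under 12 gate UMIs all lie above the line.

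The leukocyte-bearing members differed from the leukocyte-poor ones in depth, in hashtag signal and in predicted doublets, which are droplets scored as holding more than 1 cell. Median UMIs per cell were 6593 in the 21 and 4266 in the 47, beside 3682 in the other neonatal cells and 4525 over all members. The median number of UMIs of the pool's own hashtag was 375 in pool 1 and 506 in pool 2 for leukocyte-poor members. For leukocyte-bearing members it was 1440 and 2197, and for the other cells 1550.5 and 1789. The hashtag antibodies used for mouse cells are known to bind CD45 and MHC class I. Predicted doublets numbered 6 of the 21 (28.6%) and 1 of the 47 (2.13%), against 181 of the 8981 other cells (2.02%). Over 20% of hashtag UMIs from the other pool's tag appeared in 2 members, 1 of each kind, both in pool 1. The median mitochondrial share was 3.20% in members and 2.38% in other cells. Members were kept whatever their doublet score, and the part of doublets in the leukocyte UMIs was not tested.

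**Figure D2:**
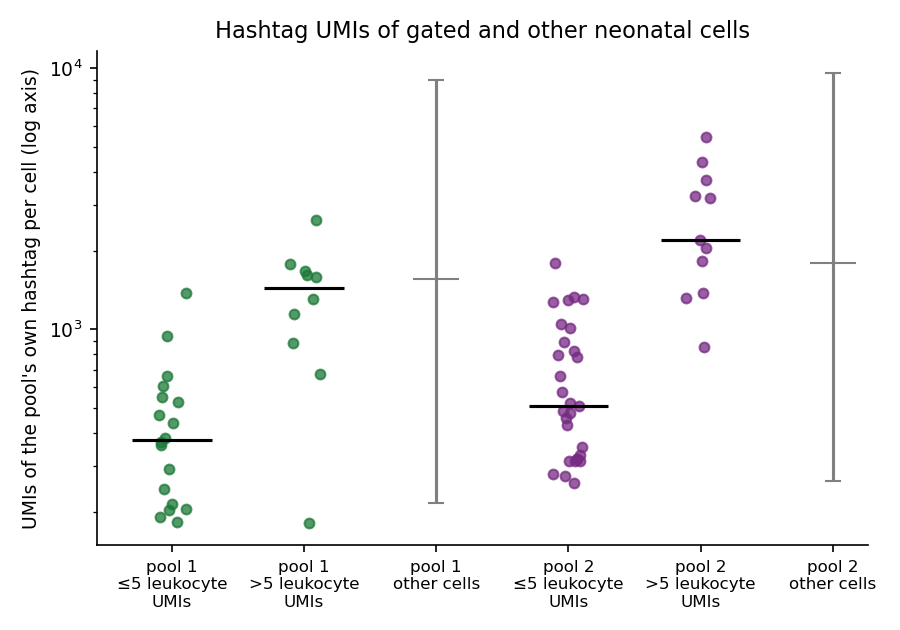
UMIs of the pool's own hashtag per cell (log axis) for gated cells with at most 5 and with over 5 leukocyte UMIs, a point per cell and a black line at the median; grey marks give the median of the other cells, with bars from the lowest to the highest cell. In both pools the leukocyte-poor members sit low, with medians of 375 and 506, and the leukocyte-bearing members overlap the middle of the other cells.

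In the 21 leukocyte-bearing members, the accompanying leukocyte genes were of several kinds. At least 3 UMIs of the 12 monocyte and macrophage genes were found in 15 of them, of the 10 dendritic cell genes in 10, of the 10 neutrophil genes in 2, of the 10 lymphocyte genes in 2 and of the 6 platelet genes in 1. At least 3 UMIs of the 7 MHC class II genes were found in 11. Among the 47 leukocyte-poor members the same mark was reached by 0 cells for monocyte genes, 4 for dendritic cell genes, 2 for neutrophil genes, 0 for lymphocyte genes and 7 for MHC class II. The highest sums in a leukocyte-poor cell were 4 UMIs for the dendritic cell genes and 5 for MHC class II, beside 80 and 532 in a leukocyte-bearing cell.

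Zbtb46 (chromosome 2, 181387762 to 181459426, minus strand, GRCm38), the gene behind the reporter, was detected in the members at the level of the other sorted cells as a whole. Members of pool 1 held 5 Zbtb46 UMIs in 5 of 28 cells (35.5 CPM, that is UMIs per 1000000 UMIs of the summed cells). Members of pool 2 held 9 UMIs in 7 of 40 cells (43.7 CPM). The other neonatal cells stood at 43.3 and 36.6 CPM, so the order differed between pools and the sets overlapped. Over both pools the members were at 40.4 CPM (exact 95% counting interval 22.1 to 67.8), 1.01 times the other cells (0.550 to 1.70). This rests on 14 UMIs in all, so that ratios within those bounds cannot be told apart at this depth.

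Against reference sets picked by other marker genes, the members' Zbtb46 level lay between those of dendritic cells and of cells that should lack the gene. Type 1 classical dendritic cells (1431 cells, by summed UMIs of Xcr1 and Clec9a) were at 71.3 and 64.3 CPM. Mature dendritic cells (1004 cells, by summed UMIs of Ccr7 and Fscn1) were at 98.2 and 86.4 CPM. Neutrophils (800 cells) were at 6.51 and 7.87 CPM and nonclassical monocytes (1936 cells) at 5.08 and 4.48 CPM. The members were 5.55-fold above neutrophils (2.42 to 12.8) and 8.46-fold above nonclassical monocytes (4.13 to 16.5), intervals that exclude 1. They were 2.28-fold below mature dendritic cells (1.35 to 4.21) and 1.68-fold below type 1 dendritic cells (0.994 to 3.09), the last an interval that includes 1.

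The Zbtb46 level was as high without the members that carried leukocyte RNA. The 47 leukocyte-poor members held 9 Zbtb46 UMIs in 8 cells (37.7 CPM in pool 1 and 49.996 CPM in pool 2). Their level over both pools, 45.1 CPM (20.6 to 85.6), was 6.19-fold above neutrophils (2.34 to 15.7). The 21 leukocyte-bearing members held 5 UMIs in 4 cells (34.0 CPM). A Ptprc UMI was found in 0 of those 8 cells and in all of those 4, beside 4 of all 47 and 16 of all 21. Ptprc was among the genes that set this split, so these counts follow largely from it. A Zbtb46 UMI was found in 12 of 68 members (17.6%, exact interval 9.47 to 28.8%) at a median depth of 4525 UMIs, and in 1.38% of neutrophils at a median depth of 1663. After each cell was thinned to 1000 UMIs, which left out no cell, Zbtb46 remained in 3 of 68 members (4.41%, 0.919 to 12.4%), in 3.30% of other cells, 6.99% of type 1 dendritic cells, 11.3% of mature dendritic cells and 0.625% of neutrophils. At 3 cells this thinned share is too thin to order the members among these sets.

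Ptprc (chromosome 1, 138062861 to 138175708, minus strand, GRCm38), which encodes CD45, was lower in the members than in the other cells of both pools. Members held 21 UMIs in pool 1 (149 CPM) and 33 in pool 2 (160 CPM), against 797 and 876 CPM in the other cells. The fold was 5.36 lower (counting interval 4.11 to 7.14), and 20 of 68 members (29.4%) had a Ptprc UMI against 88.8% of other cells. Nearly all of it lay in the leukocyte-bearing members, with 50 UMIs in 16 of 21 cells (340 CPM). The leukocyte-poor members held 4 UMIs in 4 of 47 cells (20.04 CPM, 5.46 to 51.3), 41.7-fold below the other cells (16.3 to 153), though Ptprc was itself among the genes that set this split. Mature dendritic cells, at 209 and 240 CPM, were the reference set nearest to the members taken as a whole, whose level mixes these 2 kinds of member. The leukocyte-poor members were 11.2-fold below mature dendritic cells (4.36 to 41.2).

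**Figure D3:**
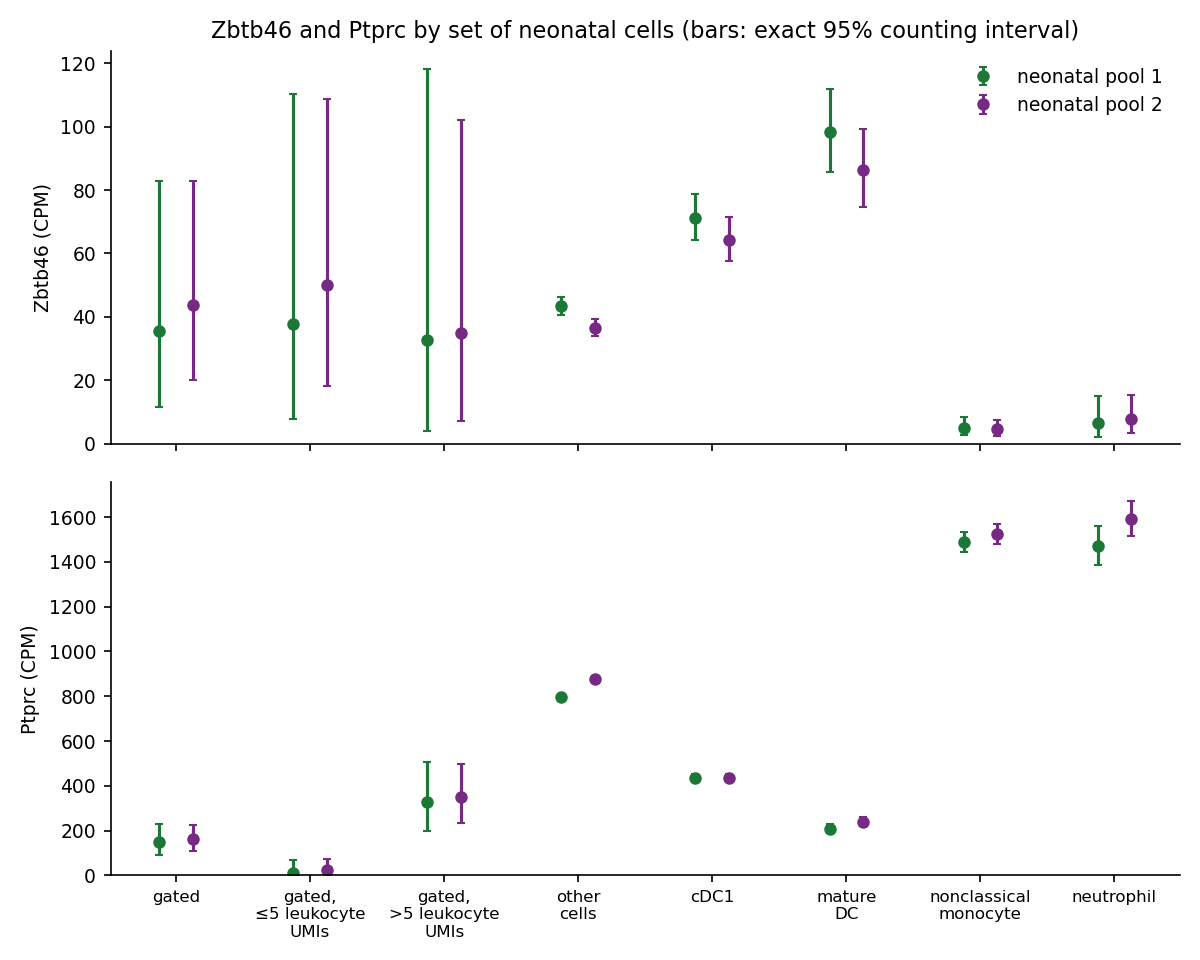
Zbtb46 (top) and Ptprc (bottom) in CPM for the gated cells, their leukocyte-poor and leukocyte-bearing subsets, the other neonatal cells and 4 reference sets, a point per pool with exact 95% counting intervals. Zbtb46 in the members lies near 40 CPM, above neutrophils and nonclassical monocytes, while Ptprc in the leukocyte-poor members lies near 0.

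The members were next set against the 8981 other neonatal cells over all genes. Of 6880 genes with at least 20 CPM in both pools in either set, 698 were at least 4-fold higher in the members in both pools, which is 10.1% of the genes compared. At least 4-fold lower were 150 genes, or 2.18%. The gate was cut on this same contrast, so these counts and all folds below are descriptions with no test, and the median log2 fold over all compared genes was 0.24. Genes reach the 20 CPM mark mostly through the set where they are high, so that counts within a list say little by themselves. Among leukocyte-poor members alone, 883 genes were higher and 269 lower. With pool 1 alone the counts were 1146 and 370, and with pool 2 alone 949 and 426, because agreement between pools was then not asked for.

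The 5 gate genes chose the cells and are given as such. Cdh5 (VE-cadherin) stood at 1045 and 1016 CPM in the members of pools 1 and 2, Cldn5 (claudin-5) at 1976 and 1667, Egfl7 (a secreted vessel protein) at 1358 and 1132. Ramp2, the adrenomedullin receptor partner, was at 1315 and 1477 CPM, and Epas1, the hypoxia factor HIF-2 alpha, at 1080 and 1054. In the other cells no gate gene passed 2.3 CPM in either pool. On GRCm38 these genes lie at chromosome 8, 104101625 to 104144511 (Cdh5), chromosome 16, 18776847 to 18778262 (Cldn5), chromosome 2, 26580014 to 26593120 (Egfl7), chromosome 11, 101246028 to 101259546 (Ramp2) and chromosome 17, 86753700 to 86833410 (Epas1), all on the plus strand.

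**Figure D4:**
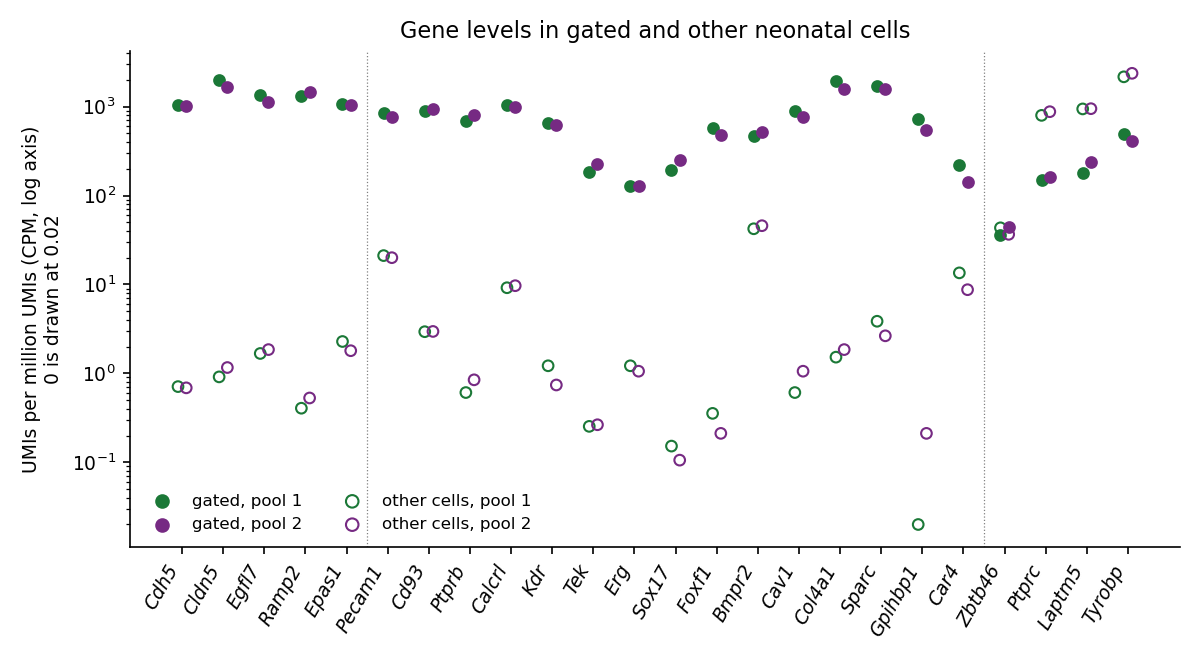
CPM (log axis, with 0 drawn at 0.02) of 24 genes in gated cells (filled) and other neonatal cells (open) of both pools; the first dotted line ends the gate genes and the second begins Zbtb46 and 3 leukocyte genes. Vessel genes lie far higher in gated cells in both pools, Zbtb46 overlaps between the sets, and Ptprc, Laptm5 and Tyrobp lie lower in gated cells.

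Beyond the gate genes, the 25 genes with the highest ratio in the pool where it was smaller were taken, an order that differs from that of the summed folds. Gpihbp1, which carries lipoprotein lipase across capillaries, had 103 and 112 UMIs in the members (732 and 544 CPM) and 4 UMIs among all other cells, a fold of 5988 (counting interval 2305 to 22178). Tmem100, a BMP-dependent membrane protein of lung vessels, was at 931 and 739 CPM (3153-fold, 1689 to 6647). Emcn (endomucin) was at 313 and 262 CPM, Foxf1, a transcription factor needed for lung vessels, at 569 and 476 CPM, and Aqp1, a water channel, at 462 and 539 CPM. Scn7a, a sodium channel family member, reached 2395 and 1594 CPM in the members, in 59 of 68 cells, against 1.17 and 1.53 CPM in the others. The rest of these 25 were Ldb2, Efna1, Pcdh17, Stmn2, Tm4sf1, Ecscr, Clec14a, Piezo2, Plvap, Tbx3, Sox17, Sema3c, Ptprm, Apln, Mboat2, S100a16, Tjp1, Prx and Ptprb, with log2 summed folds from 10.03 to 11.10. The 10 lowest genes by the like rule were Lcn2, Camp, Ngp, Ccl3, Ifitm1, Ccl4, Stfa3, Retnlg, Wfdc21 and Slc7a11. Among these Camp, a neutrophil granule peptide, had 0 and 1 UMIs in the members, against 470 and 615 CPM in the other cells.

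Of 20 listed junction and surface genes of endothelium, 19 reached the 20 CPM mark and all 19 were at least 4-fold higher in both pools, with a median log2 fold of 8.31. Cd93, a C-type lectin-like receptor, was at 896 and 943 CPM in the members against 2.94 and 2.96 CPM in the others (313-fold). Ptprb (VE-PTP, the phosphatase partner of VE-cadherin) stood at 697 and 802 CPM (1046-fold). Pecam1 (CD31) was at 839 and 763 CPM, and with 21.1 and 20.002 CPM in the other cells its fold was 38.6 (33.5 to 44.3). Cd34, a sialomucin of vessels and progenitors, was at 697 and 471 CPM (105-fold).

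Growth factor receptors and ligands followed, with 11 of the 14 members compared (18 listed) higher and none lower, at a median log2 fold of 4.06. Kdr (VEGFR2) was at 647 and 617 CPM against 1.22 and 0.741 CPM (639-fold, 451 to 928). Flt1 (VEGFR1) was at 355 and 253 CPM (26.4-fold), and the VEGF co-receptor Nrp1 at 562 and 389 CPM (8.91-fold), the last with about 50 CPM in the other cells. Of the angiopoietin receptors, Tie1 was at 306 and 243 CPM and Tek (Tie2) at 185 and 224 CPM. The apelin receptor Aplnr was at 242 and 292 CPM, and Kit, the stem cell factor receptor, at 291 and 253 CPM (8.97-fold). Nrp2, Fgfr1 and Igf1r did not reach 4-fold in both pools, and neither did Vegfc. Angpt1 had 0 UMIs in the members.

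Transcription factors were mixed, with 11 of 18 compared (20 listed) higher and a median log2 fold of 3.37. Ets1 was at 590 and 578 CPM (12.2-fold) and Elk3 at 306 and 292 CPM (8.81-fold), both ETS factors. Erg, an ETS factor of endothelial identity, was at 128 and 126 CPM (111-fold), and Sox17, Sox7 and Sox18, the SoxF factors of vessels, had log2 folds of 10.76, 9.86 and 9.52. Klf2, the shear stress factor, was abundant in both sets (469 and 612 CPM in members, 407 and 442 CPM in the others, 1.31-fold), as was Klf4 (1.11-fold). Mef2c (2.08-fold) also stayed under the 4-fold mark.

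Of the Notch pathway, 9 of 14 listed genes were compared, of which 4 were higher (Dll4, Notch4, Jag2 and Nrarp) and 1 lower. The lower gene was Notch2, and the median log2 fold over the 9 was 2.24. Dll4, the tip cell ligand, was at 71.1 and 58.3 CPM (223-fold, 104 to 509) and Notch4 at 99.5 and 72.9 CPM (6.73-fold). Notch1 was at 114 and 170 CPM (4.73-fold), short of the mark in 1 pool. Rbpj, the DNA-binding partner of Notch, was at 121 and 97.2 CPM, below the 229 and 221 CPM of the other cells.

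BMP and TGF-beta genes were compared for 13 of 16 listed, with 9 higher, none lower and a median log2 fold of 3.22. The receptors Bmpr2 (469 and 520 CPM, 11.4-fold), Acvrl1 (426 and 311 CPM, 8.84-fold) and Eng (341 and 238 CPM, 87.2-fold) were all higher. So were the target genes Id1 (405 and 398 CPM, 13.4-fold) and Id3 (782 and 743 CPM, 36.7-fold), while Id2 was at 185 and 355 CPM in the members and 776 and 773 CPM in the others. Bmp6, a ligand, had 16 UMIs in the members (49.8 and 43.7 CPM) against 1 UMI in all other cells.

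Caveolae and transport genes were compared for 12 of 15 listed, with 8 higher, none lower and a median log2 fold of 7.98. The caveolar coat genes Cavin2 (1087 and 1054 CPM, 793-fold) and Cav1 (888 and 758 CPM, 978-fold) were in 65 and 61 of the 68 members. Cd36, a fatty acid receptor that monocytes also express, was at 512 and 403 CPM against 144 and 149 CPM (3.05-fold), and Ehd4 at 711 and 423 CPM (4.42-fold, under the mark in pool 2).

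Genes of vessel tone and clotting were compared for 7 of 17 listed, with 5 higher and none lower (median log2 fold 4.72). Calcrl, the receptor that pairs with Ramp2, was at 1045 and 996 CPM (108-fold). Thbd (thrombomodulin) was at 320 and 296 CPM (26.1-fold). Ace was at 405 and 369 CPM against 121 and 147 CPM (2.87-fold), and Ece1, the endothelin-converting enzyme, 3.91-fold higher, neither reaching the mark.

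Basement membrane genes were compared for 15 of 17 listed, with 14 higher, none lower and a median log2 fold of 6.91. The collagen IV chains Col4a1 (1955 and 1560 CPM, 1022-fold) and Col4a2 (1009 and 802 CPM, 590-fold) and the matrix protein Sparc (1685 and 1589 CPM, 499-fold) were found in 65, 63 and 65 of the members. Igfbp7 was at 611 and 311 CPM and Nid1 (nidogen) at 263 and 228 CPM. Fn1 (fibronectin) was the exception, at 42.6 and 92.3 CPM against 191 and 177 CPM, and all 25 of its UMIs came from leukocyte-bearing members.

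Of the leukocyte recruitment genes, 4 of 11 were compared, and Cxcl12 and Cd200 were higher. Cd200 was at 256 and 224 CPM (9.34-fold), Icam1 at 78.2 and 82.6 CPM (1.05-fold) and Cd47 at 327 and 321 CPM (0.671-fold). Vcam1, Sele, Ackr1, Ccl2 and Cxcl1 had 0 UMIs in the members, which allows up to 8.66 CPM.

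By capillary genes, the members divided into a larger set with more general capillary RNA and a smaller one with more aerocyte RNA. Summed over the 7 general capillary genes (Gpihbp1, Plvap, Kit, Aplnr, Sema3c, Cadm1 and Hilpda) and the 8 aerocyte genes (Car4, Ednrb, Apln, Tbx2, Fibin, Prx, Chst1 and Emp2), 52 members had at least 2 UMIs more of the first list (20 of 28 in pool 1 and 32 of 40 in pool 2). At least 2 more of the second were found in 14 (7 and 7), and 2 lay within the margin. Both are ranges of a score and not types, and 5 cells of the general capillary range and 3 of the aerocyte range lay near the margin. The 14 aerocyte-range cells had a median of 23 aerocyte UMIs (2 to 67) and 2.5 general capillary UMIs (0 to 9). The 52 general-capillary-range cells had medians of 1 (0 to 11) and 11 (2 to 30), and just 1 cell reached 10 on both lists. The genes of both lists set the ranges, so that their own differences between the ranges follow from the cut. Of these genes, Car4 (carbonic anhydrase 4) had 53 UMIs in 11 of the 14 and 7 UMIs in 4 of the 52. Ednrb, the endothelin B receptor, had 42 and 3, whereas Gpihbp1 had 7 and 208 and Aplnr 0 and 94.

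**Figure D5:**
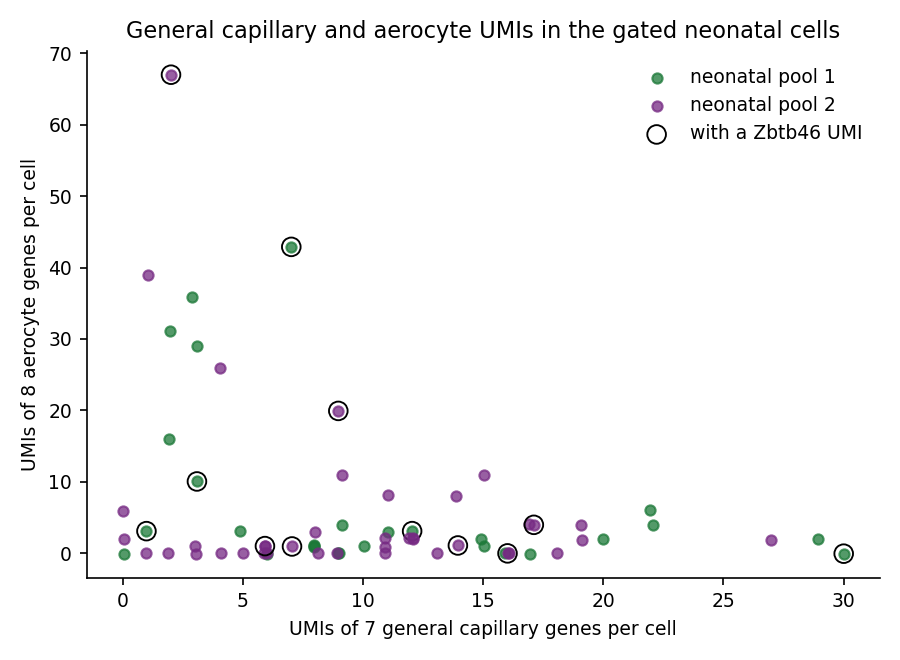
Each point is a gated neonatal cell, by UMIs of 7 general capillary genes (horizontal) and of 8 aerocyte genes (vertical), coloured by pool and spread slightly sideways and vertically; circles mark the 12 cells with a Zbtb46 UMI. Cells with over 20 aerocyte UMIs have fewer than 10 general capillary UMIs, and circled cells occur in both arms.

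Of 84 genes from the other vessel, growth and cell cycle lists with at least 20 UMIs over both ranges, 16 were higher in the aerocyte range and 22 in the general capillary range in both pools, with a counting interval of the summed fold that excludes 1. The share of all genes that lie apart by this rule was not taken, so these counts are not read as a trait of the lists. Cells of a pool are not replicates and such intervals cover counting error only, so these are descriptions, and the genes named here were chosen after their values were seen. Kdr stood at 1660 CPM (pool 1) and 1444 CPM (pool 2) over aerocyte-range cells, against 384 and 418 CPM over general capillary-range cells (3.81-fold, counting interval 2.88 to 5.02). Igfbp7, a secreted vessel protein, was at 2337 and 1257 CPM against 156 and 96.8 CPM (14.4-fold, 9.72 to 21.9). Nrp1 (2.49-fold, 1.77 to 3.46), Icam2 (2.43-fold) and S1pr1, the sphingosine 1-phosphate receptor (2.19-fold), were also higher in the aerocyte range, as was the BMP receptor Acvrl1 (2.10-fold). Higher in the general capillary range were Ptprb (102 and 80.2 CPM against 869 and 968 CPM, 10.4-fold, 4.69 to 28.5), Cd93 (6.26-fold, 3.53 to 12.2), Tm4sf1 (4.69-fold), Cavin1 (6.76-fold, 2.57 to 25.3) and Sparc (2.55-fold, 1.90 to 3.49). Tek had 2 UMIs in the aerocyte range and 70 in the other (8.53-fold, 2.27 to 71.8). Peg3, an imprinted gene, had 0 UMIs in the 14 cells and 75 in the 52. With the 0 set to 3 counts over the 14 it was 6.09-fold higher in the 52, and the lower counting limit was 4.83. Pecam1 (0.846-fold, 0.604 to 1.16) and Col4a1 (0.849-fold, 0.679 to 1.05) had intervals that include 1.

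Zbtb46 was found in both capillary ranges. The 14 aerocyte-range cells held 7 Zbtb46 UMIs in 5 cells (3 cells in pool 1 and 2 in pool 2), and the 52 general-capillary-range cells held 7 UMIs in 7 cells. Its level was 102 and 107 CPM in the aerocyte range of pools 1 and 2 and 18.3 and 30.3 CPM in the general capillary range. The ratio was 4.10, with a counting interval from 1.23 to 13.7, and rests on 14 UMIs. Among leukocyte-poor members alone it was 3.95 (0.783 to 18.3), from 4 UMIs in 9 cells and 5 UMIs in 37 cells, an interval that includes 1. Leukocyte-bearing cells made up 5 of the 14 and 15 of the 52, with medians of 2.5 and 2 pan-leukocyte UMIs per cell over the ranges. Of the 7 Zbtb46 UMIs of the aerocyte range, 3 lay in 2 leukocyte-bearing cells. These held 64 and 119 pan-leukocyte UMIs and 272 and 532 MHC class II UMIs. The aerocyte range also took in members with 8, 6 and 4 gate UMIs, which had no more than 3, 2 and 6 aerocyte UMIs. The ratio over all members is therefore not read as an aerocyte trait.

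Of the markers of larger vessels, Vwf, Fbln5 and Slc6a2 lay in few cells, mostly of pool 2, whereas others were spread over both pools. Vwf (von Willebrand factor), venous among the lists, had 0 UMIs in the 28 members of pool 1 (exact interval 0 to 12.3% of cells with a UMI) and 52 UMIs in 8 of the 40 members of pool 2 (20%, 9.05 to 35.6%). These intervals overlap, concern cells with a Vwf UMI and not cells expressing it, and the pools were not tested against each other. The highest venous sum, 27 UMIs, was in a pool 2 cell with 17 Vwf and 5 Slc6a2 UMIs, 0 Ptprc UMIs and 2 pan-leukocyte UMIs. The highest arterial sum, 55 UMIs, was in a pool 2 cell with 26 Cxcl12, 14 Fbln5, 5 Efnb2 and 5 Sox17 UMIs, which also had 72 pan-leukocyte UMIs. Fbln5 (fibulin-5) had 2 UMIs in pool 1 and 51 in pool 2, and a pool 2 cell with 15 of them also had 19 Vwf UMIs. That cell and the cells with the highest venous and arterial sums all lay in the general capillary range. The cell with the highest arterial sum did so with 4 general capillary UMIs and 0 of Gpihbp1. Efnb2 (ephrin B2, 60 UMIs in 27 cells), Sox17 (78 in 39) and Ephb4 (40 in 31) were spread over many members. The arterial gene Gja5 had 1 UMI, Hey1 2 and Dkk2 0, the venous genes Nr2f2 17, Prss23 22 and Selp 1, and Bmx and Gja4 4 and 24.

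A lymphatic pattern was found in 1 cell, of pool 2. It held 39 Ccl21a, 13 Mmrn1, 3 Prox1, 3 Flt4 and 1 Reln UMIs, 0 of Lyve1 and Pdpn, among 3147 UMIs in all, with 14 gate UMIs, 0 pan-leukocyte UMIs and 0 Zbtb46 UMIs, and was a predicted doublet. Ccl21a has near-identical copies, and 2 gene entries of the files share its symbol, so its count is uncertain. No other member had more than 2 UMIs of this list apart from Lyve1. Lyve1, often used to mark lymphatic vessels, was instead widespread, with 62 and 111 UMIs in 47 members (441 and 539 CPM), of which 33 were leukocyte-poor. The same lymphatic-pattern cell held 9 of the 10 Igf2 UMIs and 7 of the 17 H19 UMIs found in the members.

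Fetal and imprinted growth genes were compared for 6 of 14 listed, and Peg3, Mest, Cdkn1c and Grb10 were higher. Mest was at 398 and 360 CPM against 0.660 and 0.317 CPM in the other cells (762.3-fold, 469 to 1307) and was found in 45 of 68 members. Peg3 was at 171 and 248 CPM (928-fold) in 29 members, Grb10, an adaptor that dampens growth factor signals, at 107 and 82.6 CPM (324-fold) in 25, and Cdkn1c, a cyclin-dependent kinase inhibitor, at 28.4 and 63.2 CPM (18.2-fold) in 13. Igf2r was at 121 and 97.2 CPM (4.16-fold, under the mark in pool 2). Dlk1, Igf2bp1, Igf2bp2 and Meg3 had 0 UMIs.

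Cell cycle RNA was concentrated in a part of the members. Mki67 was detected in 6 of 28 members of pool 1 and 12 of 40 of pool 2 (26.5% over both, exact interval 16.5 to 38.6%), against 10.3% and 8.44% of the other cells. After thinning to 1000 UMIs the shares were 10.3% (4.24 to 20.1%) and 3.89% (3.50 to 4.31%), intervals that overlap, and 8.39% in type 1 dendritic cells. Top2a, a topoisomerase of dividing cells, was in 13.2% of members and 6.34% of other cells, and after thinning in 1.47% (1 cell, 0.0372 to 7.92%) and 2.44% (2.13 to 2.78%), so that its order turned and no difference in cycling cells is read from these shares. Of the 20 cell cycle genes, 13 were compared, and Stmn1 (625 and 734 CPM, 5.13-fold) and Cenpf (227 and 170 CPM, 7.12-fold) reached 4-fold in both pools, with a median log2 fold of 1.10 over the 13. In all, 12 members with at least 20 cell cycle UMIs held 71.5% of those UMIs, while the median member held 5.5. Cells at this mark were 17.6% of members and 6.14% of other cells, without thinning, at median depths of 4525 and 3682 UMIs. Of these 12, 11 lay in the general capillary range and 1 in the aerocyte range, 4 were of pool 1 and 8 of pool 2, and 10 were leukocyte-poor. Mki67 UMIs were found in 15 of 52 cells of the general capillary range and in 2 of 14 of the aerocyte range. Cenpf and Birc5 had 0 UMIs in the 14, which held 66919 UMIs in all. In the 52, with 274562 UMIs in all, Cenpf had 67 UMIs in 12 cells and Birc5 39 UMIs in 10 cells. With so few cells carrying them, no difference between the ranges is read from these counts.

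Of 8 MHC class I genes and 7 class II genes compared, 0 were 4-fold apart in both pools in either direction, with median log2 folds of -0.66 and -1.76. The shares over all compared genes were 10.1% higher and 2.18% lower, so for so few genes this count says little. B2m was at 1407 and 1356 CPM against 2046 and 2325 CPM (0.631-fold, 0.575 to 0.690) and was found in 65 of 68 members. Cd74, the class II invariant chain, was at 2161 and 3227 CPM against 9695 and 8294 CPM. It followed the leukocyte RNA, standing at 115 CPM in leukocyte-poor and 6432 CPM in leukocyte-bearing members, as did H2-Aa (40.1 and 2287 CPM). In leukocyte-poor members Cd74 was 78.2-fold below the other cells. Ciita, the class II regulator, had 0 UMIs in the leukocyte-poor members. Of the dendritic cell transcription factors other than Zbtb46, Irf8 (25.1 and 878 CPM) and Batf3 (0 and 123 CPM) also followed it. Spi1 (5.01 and 293 CPM) did so too, but was itself among the genes that set this split. The list had 9 of 10 compared, 0 higher and 1 lower (Nfil3). Zbtb46 was not higher in leukocyte-bearing members, at 45.1 and 34.0 CPM, which rest on 9 and 5 UMIs.

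Immediate early genes respond quickly to tissue handling. Of 15 listed, 14 were compared, with 0 at least 4-fold higher, 1 lower (Fosb) and a median log2 fold of -1.43. Over all compared genes 10.1% were higher and 2.18% lower, so for so few genes these counts say little. Jun was at 711 and 709 CPM against 481 and 393 CPM (1.62-fold), whereas Fos was at 206 and 301 CPM against 1088 and 1111 CPM (0.239-fold) and Zfp36 0.246-fold.

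RNA of epithelial, fibroblast, pericyte and mesothelial cells was almost absent from the members. No gene of the epithelial (10 genes), fibroblast (9), pericyte and smooth muscle (8), mesothelial (5) and platelet (6) lists reached 20 CPM in both pools in either set, and 6, 7, 4, 5 and 3 of them had 0 UMIs in the members. The highest sum in a member was 2 UMIs for the epithelial list, 2 for the fibroblast list, 1 for the pericyte list and 0 for the mesothelial list, and for the platelet list 9. Of the neutrophil list all 10 genes were compared, with 5 lower. A single pool 1 cell, with 4 gate UMIs and 0 UMIs of the junction and surface list, held 212 of the 222 neutrophil-list UMIs of its pool. S100a8 stood at 625 and 43.7 CPM in the pools, and 85 of its 88 UMIs in pool 1 lay in that cell, with 1 UMI in the other leukocyte-bearing members. The pan-leukocyte list had 5 of 12 lower (Ptprc, Tyrobp, Fcer1g, Rac2 and Cd53). In leukocyte-poor members the 12 genes ranged from 0 CPM (Cytip) to 125 CPM (Lcp1), though the split was made on their sum.

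The adult pools held 9 cells by the same gate, too few for a test between ages, which asked for 20 cells in each pool. Their gate sums were 8, 15, 19 and 32 UMIs in pool 1 and 4, 6, 13, 19 and 21 in pool 2, and the cells at 4 and 6 carried 18 and 52 pan-leukocyte UMIs. Median depth was 1287.5 and 1647 UMIs, below that of the neonatal members. In 4 of the 9, aerocyte UMIs stood at 14, 20, 13 and 14. Zbtb46 had 3 UMIs among the 20219 of these cells (148 CPM, 30.6 to 434), in 3 cells with 2 or fewer pan-leukocyte UMIs. Mki67 had 0 UMIs, with an upper counting limit of 182 CPM, beside 234 CPM in the neonatal members. Of the 20219 UMIs, 8870 came from the 2 leukocyte-bearing cells. Over the 7 leukocyte-poor adult cells alone, with 11349 UMIs, 3 counts stand for 264 CPM. No lower Mki67 level in adults is therefore read from this. Genes differed in both directions. Sparc had 3 UMIs (148 CPM, 30.6 to 434) beside 1628 CPM, and Col4a1 8 UMIs (396 CPM, 171 to 780) beside 1720 CPM. Higher in the adult cells were Cd36 (1385 CPM, 920 to 2001, beside 447 CPM), Kdr (1286 CPM, 840 to 1884, beside 629 CPM) and Ednrb (594 CPM, 307 to 1037, beside 130 CPM). Cdh5 (692 and 1027 CPM) and Pecam1 (1039 and 794 CPM) were of similar size. These are sums of 9 cells from another loading, and no age difference was tested.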

How the data were processed

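Droplet single-cell RNA sequencing of sorted lung cells was read from 1 joint matrix of 14710 barcodes, 32285 genes and 2 hashtag features. Values are raw UMI counts with no normalization, per the file headers, which name Cell Ranger; the submitters' processing notes give Cell Ranger 6.1.2, the mm10 build and, with no role, Seurat 4.2.0. The pool was read from the barcode suffix, per the labels. Columns not used numbered 0. Gene positions came from GENCODE M21 of GRCm38, which matched 32158 gene identifiers.

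Gated and other cells were taken as given in the report. UMIs were summed per pool and set, and CPM are UMIs per 1000000 summed UMIs: 140692 and 205790 in members of the 2 pools, and 19704578 and 18898239 in other cells. A fold compares sums over both pools, with an exact 95% counting interval, and a count of 0 was set to 3 counts over the set. Genes passed at 20 CPM in both pools of either set and were called at 4-fold in both pools. UMIs near the 3' end carry no length scale, so levels were not compared between genes. No count model was run, because the gate used this contrast and adult pools held too few cells. Doublets were predicted with Scrublet per loading (scanpy 1.11.5, seed fixed) and kept. Reference sets were cut on raw UMIs summed over the genes named, so that not each gene need be present in a cell. Type 1 dendritic cells had Xcr1 plus Clec9a at 2 or more without Csf3r. Mature dendritic cells had Ccr7 plus Fscn1 at 4 or more without Xcr1. Neutrophils had Csf3r plus Cxcr2 plus Retnlg at 4 or more without Flt3, Xcr1 and Ccr7. Nonclassical monocytes had Csf1r plus Cx3cr1 plus Treml4 plus Ace at 4 or more without Flt3, Xcr1, Ccr7 and Csf3r.

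The members, lists and rules were chosen with earlier results of these data known. The naming rule takes the gate genes, Zbtb46, Ptprc, the 25 largest and 10 smallest folds by the weaker pool (without mitochondrial, ribosomal, haemoglobin, sex-linked and uncharacterised genes), list members at 50 CPM or more, and vessel and pan-leukocyte markers; the text prints a part of these. Ratios and intervals were tested on simulated data. Tools were matplotlib 3.10.9, pandas 2.3.3, scipy 1.17.1 and numpy 2.4.6 under Python 3.11.15. Alternatives were other cell filters, gate limits, comparators, thinning, doublets left out and single pools.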

Additional observations from a re-analysis of the deposited data

How the results depend on the processing

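Ptprc stayed lower and Zbtb46 stayed close to the other cells (log2 ratios from -0.29 to 0.32) under every alternative tried. The mean share of members was 0.520% when leukocyte-bearing members were left out, and members numbered 28 to 40 with either pool alone. The Ptprc log2 ratio, -2.42 in the report, was -2.45 and -2.31 with looser and stricter cell filters, -2.10 and -2.48 with gate limits of 3 and 8 UMIs, -2.71 without predicted doublets, -5.38 in leukocyte-poor members, -2.97 as a mean over cells and -3.19 after thinning, and -2.45 to -2.42 with either pool alone. Its mean level, 155 CPM, was 201 and 147 CPM at gate limits of 3 and 8 UMIs, 128 CPM without predicted doublets, 18.8 CPM in leukocyte-poor members, 141 CPM as a mean over cells and 127 CPM after thinning. Zbtb46 was at 45.6 CPM without predicted doublets. The 150 lower genes became 269 in leukocyte-poor members, 280 as a mean over cells, 79 after thinning and 370 to 426 with either pool alone, where the 698 higher genes became 949 to 1146. At 2-fold 1272 genes were higher and 641 lower, and at 100 CPM 258 and 76; 7 of the 215 named genes changed direction after thinning and no more than 4 under any other alternative, none of them a gene past 4-fold. The causes were not tested, other than that with either pool alone agreement between pools was not asked for. No paired analysis was possible because the values come from no test, the gate having used this contrast; calls rest on the ratio within each pool, and printed folds on sums over both. Depth limits single genes: 3 counts over the members stand for 8.66 CPM.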
